A study of Homo sapiens with 26 samples.

Results

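Among 25 single cells of the human leukaemia line KBM7, 8 carried at least 1 autosome whose DamID signal stood at 1.5 or more times its usual level, and 17 did not. The former are called raised cells and the latter balanced cells. For each cell and autosome, the mean ratio of observed over expected signal was divided by the median of that autosome over the other cells and then by the cell's own median over its autosomes. A cell entered the raised group when any of 21 autosomes reached 1.5 on this relative level. Chromosomes 8 and X took no part in the choice, and cell 22 was left out of both groups. The raised cells were 3, 10, 13, 20, 21, 23, 24 and 26. Both groups are ranges of a measured score and not conditions of the study.

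DamID marks DNA with the bacterial enzyme Dam, which methylates adenine in GATC sequences. A digestion specific for the methylated site, adapter ligation and PCR then recover the marked fragments, so a region yields signal where the enzyme reached it and the fragment was amplified. Free Dam marks accessible chromatin and commonly serves as the reference for a Dam fusion. KBM7 is widely used because its genome is nearly haploid: most chromosomes are present once, so that each of those has a single homologue to be marked. The ratios do not separate the amount of DNA of a chromosome from how strongly it was marked.

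All cells of both groups came from clone 5-8, were labelled haploid (1N) and carried Dam alone, although the study's title refers to lamin B1, which lines the inside of the nuclear envelope. Dam was stabilised with 0.5 nM Shield1 for 15 h, and the smallest 2% of cells expressing both Fucci markers, which report the cell cycle stage, were sorted singly. Of the 124 cells in the design text, 26 are described here, 25 of them in the 2 groups. The clone is the only culture the labels name, so each group was treated as 1 sample, spreads are between cells of that clone, and no test between the groups was made.

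The raised cells were also the shallowest. Their recovered total counts ran from 20182 to 39255 with a median of 27403, against 36240 to 178941 with a median of 69113 in the balanced cells. The 7 cells of lowest total were all raised, and 3 balanced cells lay at or under the highest raised total. The share of the 26331 used 100 kb bins with any signal ran from 36.8% to 58.5% in raised cells (median 44.3%) and from 56.7% to 94.9% in balanced cells (median 74.3%). Depth and group therefore largely coincide, and values from thinned counts or from the 5 balanced cells under 45000 counts are given beside the results where they differ. No pair of the 26 cells had identical values, and the pair closest in counts over 1 Mb windows, cells 9 and 16, had a chi-square of 1.69 per degree of freedom.

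The rule called 18 of 525 combinations of cell and autosome (3.43%), on 12 of 21 autosomes. Cell 3 had 5 raised autosomes, cell 21 had 4, cell 10 had 3, cell 13 had 2, and cells 20, 23, 24 and 26 had 1 each. Chromosomes 4, 6, 10, 18, 19 and 21 were each called in 2 cells, and chromosomes 3, 9:22, 11, 13, 14 and 20 in 1. Chromosomes 1, 2, 5, 7, 12, 15, 16, 17 and 22:9 were called in none. The name 9:22 stands for the derivative of chromosome 9, and 22:9 for the small derivative of chromosome 22, the Philadelphia chromosome that carries the BCR-ABL1 fusion of chronic myeloid leukaemia. Both products of the translocation are present in KBM7. In cell 3 the derivative 9:22 stood at 1.72 and the derivative 22:9 at 0.87.

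**Figure D1:**
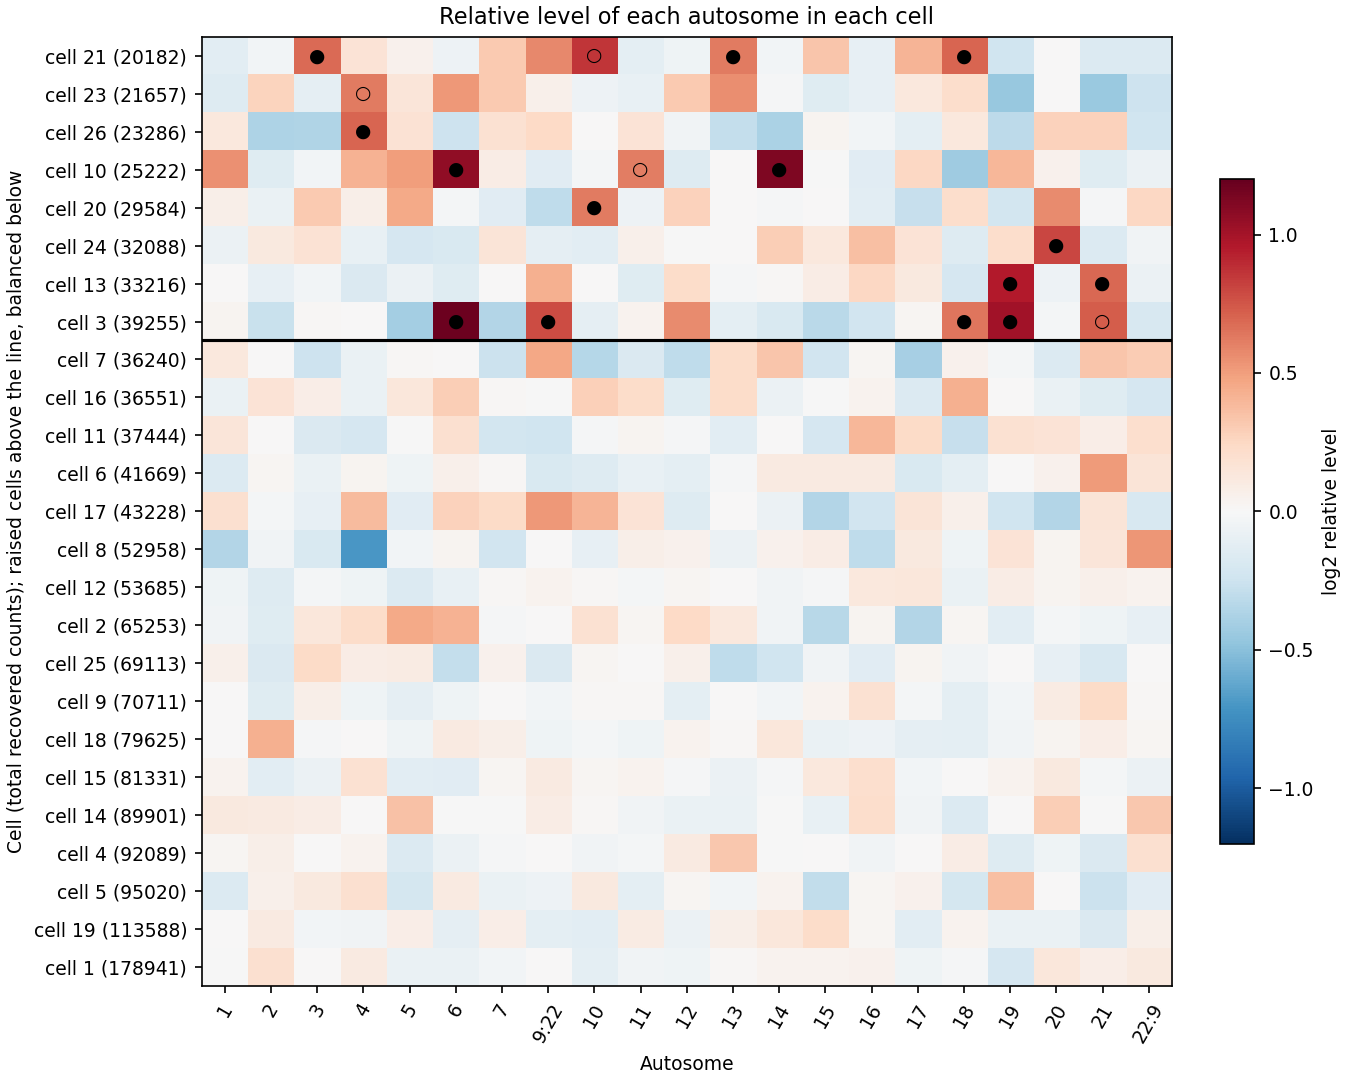
Relative level (log2 colour scale) of 21 autosomes (columns) in 25 cells (rows, with total recovered counts), raised cells above the black line and balanced cells below it, each ordered by total. Filled circles mark levels of 1.5 or more that stay there without bins of low expectation, and open circles the 4 that do not; the strongest colours are chromosomes 6 and 19 in cell 3 and chromosomes 6 and 14 in cell 10.

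The levels that defined the group are given as a description. Chromosome 6 in cell 3 was highest at 2.26, followed by chromosome 14 in cell 10 at 2.18, chromosome 6 in cell 10 at 2.097, chromosome 19 in cell 3 at 2.01 and chromosome 19 in cell 13 at 1.93. The median of the 18 levels was 1.64. Just inside the threshold were chromosome 11 in cell 10 at 1.53, and chromosomes 13 in cell 21, 4 in cell 23 and 10 in cell 20, each at 1.54. Just outside lay the derivative 9:22 in cell 21 at 1.49 (1.13 without the bins of low expectation described next), chromosome 12 in cell 3 and chromosome 20 in cell 20, both at 1.48, and chromosome 13 in cell 23 at 1.47. The highest level in a balanced cell was 1.44, for the derivative 22:9 in cell 8. By the rule's own levels, the highest autosome of a cell was thus at most 1.44 in balanced cells and at least 1.54 in raised cells. Single autosomes of raised cells lay between those values.

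Some of the 18 levels rested on a single bin. Recovered whole counts give each bin a relative expectation, and 903 used bins had an expectation under 0.5 times the median. In these, 1 count yields a higher ratio than in a median bin, and a very large one at the lowest expectations. Chromosome 21 in cell 3 owed 41.2% of its summed ratio to the bin at 10200001 to 10300000 (hg19), with a ratio of 194 from 1 count. Its level was 0.97 without that bin. Chromosome 4 in cell 23 owed 19.4% to the bin at 49400001 to 49500000, with a ratio of 359 from 1 count, and stood at 1.22 without it. Chromosome 10 in cell 21 owed 19.0% to the bin at 17800001 to 17900000, with a ratio of 388 from 1 count, and stood at 1.47 without it. The expectation of each of these 3 bins was 0.316% of the median bin.

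Without the 903 bins, 14 of the 525 combinations (2.67%) stayed at 1.5 or more, in 7 cells. Cell 23, whose only call was chromosome 4, then had its highest autosome at 1.46 and belongs to the raised group through 1 bin. The derivative 9:22 in the balanced cell 7 then stood at 1.47, above every autosome of cell 23, so the groups overlapped on this measure. Chromosome 11 in cell 10 fell just below the threshold, to 1.46, with no single bin behind it. Chromosome 10 in cell 21 was at 1.48 and chromosome 21 in cell 3 at 1.05. The 14 remaining levels ran from 1.505 to 2.31 with a median of 1.74, of which 5 were at 1.9 or more.

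**Figure D2:**
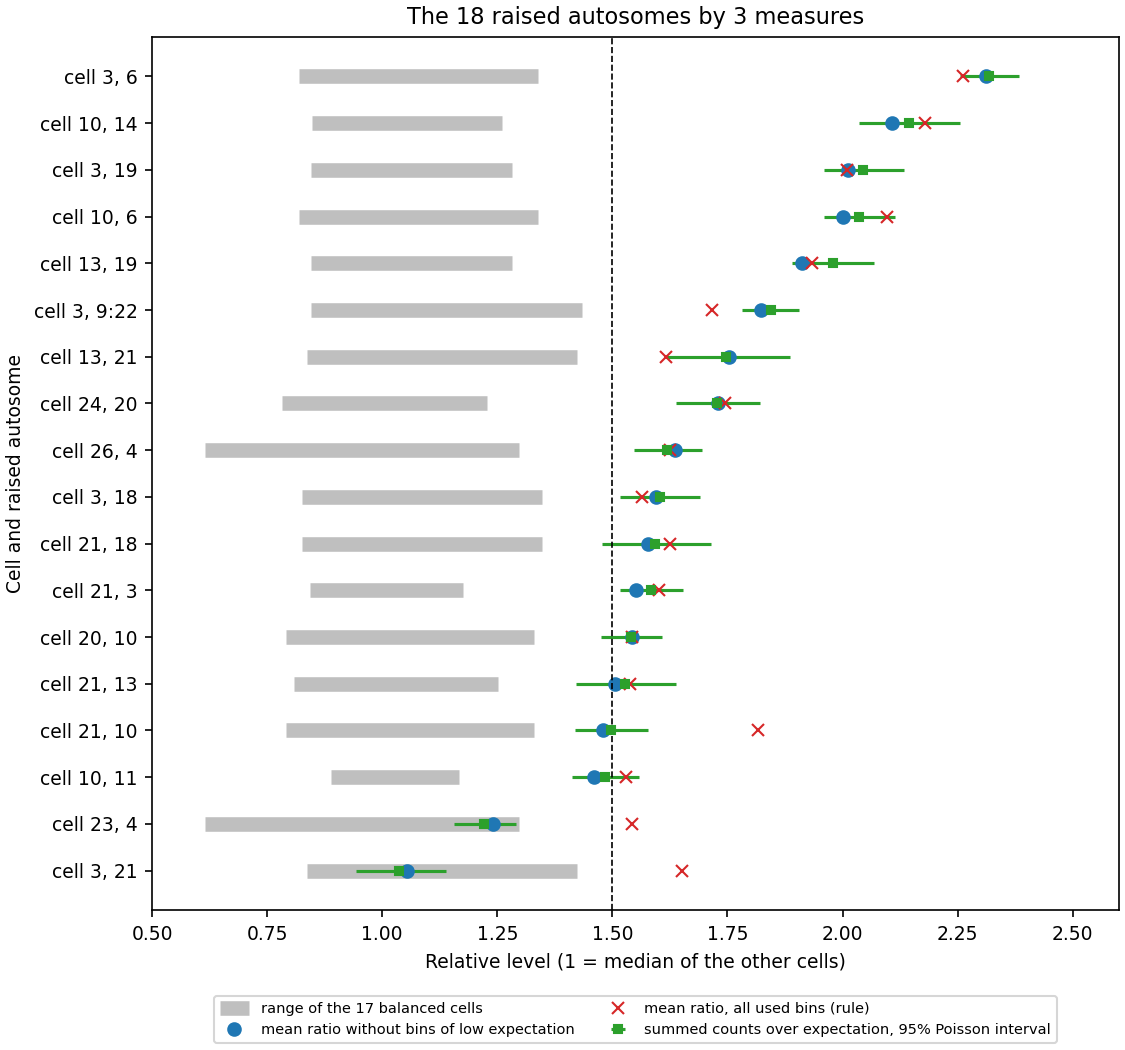
Relative level (x axis, 1 is the median of the other cells) of the 18 raised autosomes (rows: cell, then autosome) by the rule (crosses), without bins of low expectation (circles) and as summed counts over summed expectation with 95% Poisson intervals (squares); grey bars span the 17 balanced cells by the rule. Crosses stand far from the other symbols for chromosome 10 in cell 21, chromosome 4 in cell 23 and chromosome 21 in cell 3.

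Counting error differed between the raised autosomes. Summed counts over summed expectation, which give a bin weight by its expectation, put chromosome 6 in cell 3 at 2.32 from 4915 counts, with an exact 95% Poisson interval from 2.25 to 2.38. Chromosome 14 in cell 10 was at 2.14 (2.04 to 2.26, 1491 counts). Chromosome 20 in cell 24 was at 1.73 (1.64 to 1.82, 1427 counts). Chromosome 13 in cell 21 was at 1.53 (1.42 to 1.64, 771 counts), an interval that reaches below the threshold. That of chromosome 11 in cell 10 did too, at 1.48 (1.41 to 1.56). So did that of chromosome 10 in cell 20, the only call of that cell, at 1.54 (1.48 to 1.61). In cell 21 the same held for chromosome 18 at 1.59 (1.48 to 1.71) and chromosome 10 at 1.496 (1.42 to 1.58). Chromosome 4 in cell 23, at 1.22 (1.16 to 1.29), lay wholly below it, and chromosome 21 in cell 3, at 1.04 (0.94 to 1.14), included 1. These intervals reflect counting alone: PCR amplified the fragments, and duplicates may be included in the counts.

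How far a raise ran along its chromosome differed between combinations. Autosomes were split into segments of 10 Mb, and the level of a segment was taken against the median of the balanced cells on the same segment. With all used bins, 192 of the 209 segments of raised autosomes lay above 1 (91.9%), and without the 903 bins 191 did (91.4%). On the other autosomes of the same 8 cells 47.0% of segments lay above 1. In balanced cells the share was 50.0%. The rule fixes the mean of these segments, so nothing is read from these shares beyond how evenly the raise was spread. Of the 14 combinations that stayed at 1.5 without the 903 bins, 12 had every segment above 1, and the exceptions were chromosome 4 in cell 26 (17 of 19 segments) and chromosome 13 in cell 21 (9 of 10). Those 12 include chromosomes with a step, described further on, and 7 of the 14 had every segment at 1.3 or more. Above every balanced cell were 72.7% of the segments of raised autosomes and 12.5% of those on the other autosomes of the raised cells.

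Chromosome 6 in cell 3 showed the most complete raise. All 17 segments lay above every balanced cell, the lowest at 1.68, the median at 2.27 and the highest at 2.94. Its short arm stood at 2.29 and its long arm at 2.17, with the arms divided at the widest gap in the values. Chromosome 6 in cell 10 was as even at a lower level, with 1.92 on the short arm and 1.93 on the long arm, and 16 of its 17 segments lay above every balanced cell.

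Chromosome 14, an acrocentric chromosome with values on its long arm only, was raised in cell 10 over all 9 segments, from 1.76 to 2.59 with a median of 1.89. Every one of these lay above every balanced cell. In cell 3, chromosome 18, a gene-poor chromosome, was raised over all 8 segments from 1.37 to 2.21, again each above every balanced cell. The derivative 9:22 in the same cell was among the most even, with 13 segments between 1.62 and 2.05.

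Raises on some other autosomes ran over most or all of their length. Chromosome 3 in cell 21 had 20 segments between 1.10 and 2.04 with a median of 1.54, and 18 of them lay above every balanced cell. Its arms stood at 1.61 and 1.497, but from 188000001 on it was at 1.07 (0.87 to 1.32), within the balanced range of 0.76 to 1.09. Chromosome 10 in cell 20 had 14 segments between 1.12 and 2.101, with 1.65 on the short arm and 1.48 on the long arm, and 9 of the 14 lay above every balanced cell. From 104000001 on it was at 1.24 (1.12 to 1.37), within the balanced range of 0.82 to 1.304. Chromosome 20 in cell 24 had 7 segments between 1.34 and 2.02, with arms at 1.697 and 1.73.

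Other raises covered part of a chromosome. A single step was placed along each autosome where 2 levels described the counts of 1 Mb windows best, with at least 10 windows on each side. The fold between the sides reached 1.8 in 14 of 500 combinations (2.80%): in 4 of 18 raised combinations (22.2%), in 8 of 142 other combinations of the raised cells (5.63%) and in 2 of 340 of the balanced cells (0.588%). Positions of steps were chosen from the same counts and are a description. Steps were taken at the full depth of each cell, raised cells were shallower, and the part of depth in these shares was not tested. Some steps had few counts on 1 side, such as 35 on chromosome 21 in the raised cell 26 and 37 on chromosome 20 in the balanced cell 17.

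Chromosome 10 in cell 21 averaged 1.025 (0.95 to 1.11) up to 100000000, within the balanced range of 0.79 to 1.31, with segments there between 0.66 and 1.25. From 100000001 to 135000000 it stood at 2.70 (2.50 to 2.91, 679 counts), where balanced cells ran from 0.86 to 1.298. The raised stretch was the distal part of the long arm, and the whole chromosome came to 1.48 without the 903 bins.

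Chromosome 19, the most gene-dense human chromosome, was raised unevenly in both of its cells. In cell 13 the side up to 33000000 was at 1.32 (1.22 to 1.43) and the side from 33000001 at 2.56 (2.42 to 2.71), and by arm the short arm stood at 1.297 and the long arm at 2.49. In cell 3 the first 10 Mb were at 1.08 (0.94 to 1.23), within the balanced range of 0.78 to 1.31, and the rest at 2.27 (2.17 to 2.38). By arm, cell 3 stood at 1.68 on the short arm and 2.33 on the long arm, so the long arm was the higher in both cells.

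Chromosome 4 in cell 23 held the largest step among raised autosomes. It was at 1.33 (1.25 to 1.405) up to 171000000 and at 0.35 (0.25 to 0.48, 39 counts) from 171000001 to 190800000, where balanced cells ran from 0.55 to 1.36. In cell 26 the same chromosome was at 1.45 on the short arm and 1.69 on the long arm, with segments between 0.82 and 2.296. Its first 23 Mb were at 0.996 (0.85 to 1.16), within the balanced range of 0.80 to 1.18, and the rest at 1.71 (1.63 to 1.79). The 2 cells with chromosome 4 called thus differed in where along it the signal was high.

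Smaller steps, under 1.8-fold, were seen on 2 gene-poor chromosomes of cell 21. Chromosome 13 was at 1.82 (1.66 to 1.99) up to 58000000 and at 1.16 (1.033 to 1.302) from 58000001, within the balanced range of 0.80 to 1.28. Chromosome 18 was at 1.68 (1.56 to 1.82) up to 66000000 and at 1.02 (0.78 to 1.31) beyond. In cell 3, chromosome 18 had no such drop, with 1.47 up to 46000000 and 1.804 beyond.

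**Figure D3:**
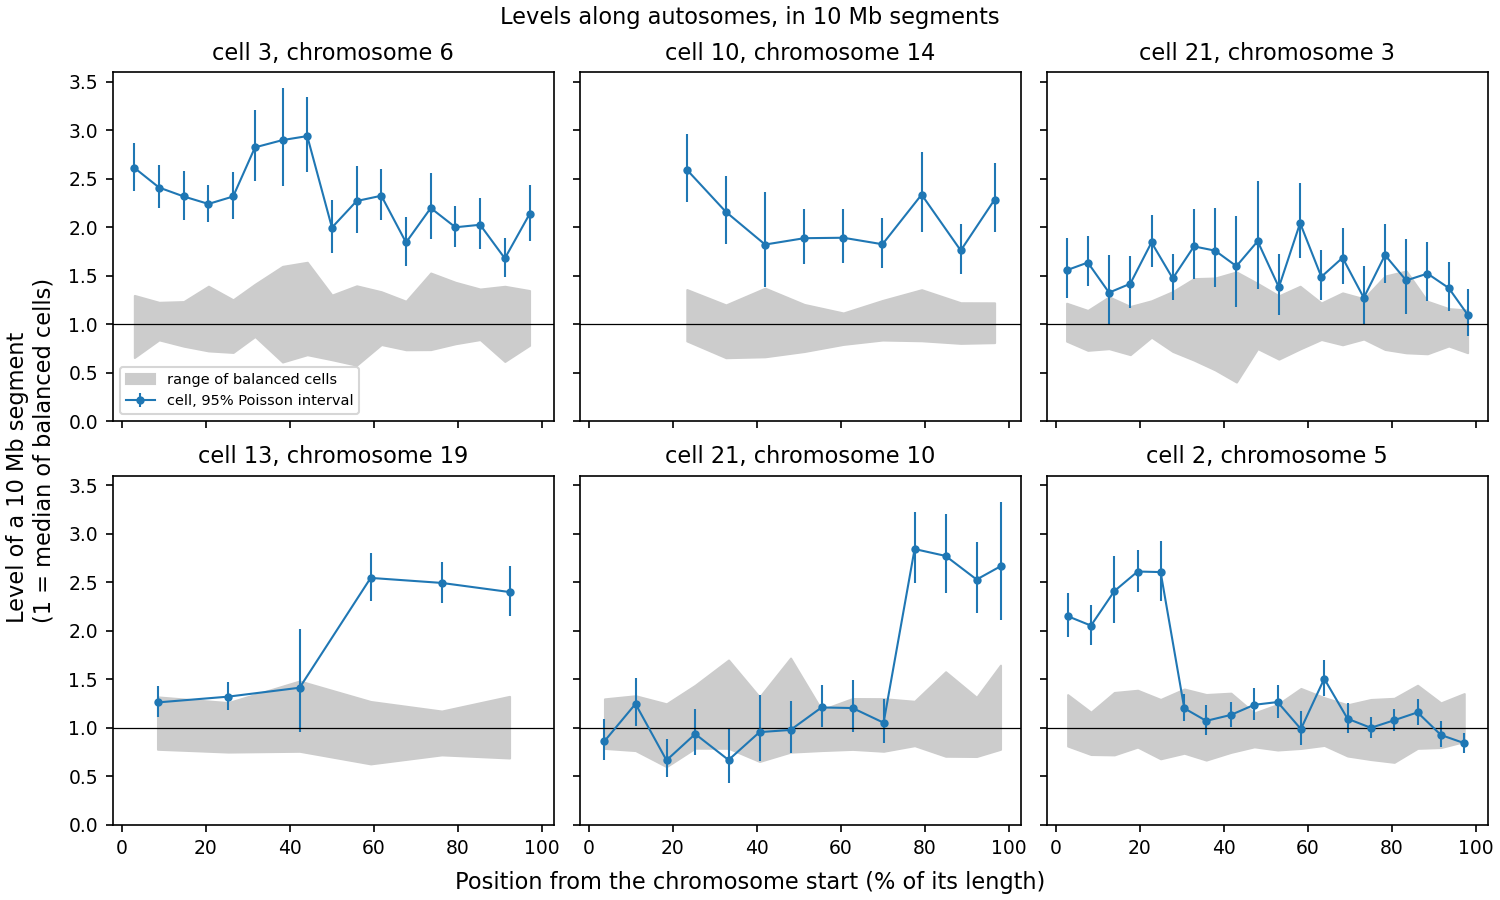
Level of 10 Mb segments (y axis, 1 is the median of the balanced cells, bars are exact 95% Poisson intervals) against position as a percentage of chromosome length for 5 raised autosomes and for chromosome 5 of the balanced cell 2, without bins of low expectation; grey spans the other balanced cells. Chromosomes 6 in cell 3 and 14 in cell 10 are above every balanced cell in all segments and 3 in cell 21 in 18 of 20, not at its distal end, while 19 in cell 13, 10 in cell 21 and 5 in cell 2 show a step.

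Partial raises also occurred below the chromosome threshold. Chromosome 4 in cell 10, at 1.34 as a whole, was at 0.79 (0.73 to 0.86) up to 122000000 and at 2.09 (1.95 to 2.24) from 122000001 to 190800000. Chromosome 1 in cell 10 went from 0.99 to 1.799 (1.72 to 1.89) at 120000001. Chromosome 12 in cell 3, just under the threshold at 1.48, was at 1.63 (1.57 to 1.69) up to 117000000 and at 0.78 (0.68 to 0.89) beyond. Segments at 2 or more made up 22.0% of the segments of raised autosomes, 0.585% of those on the other autosomes of the raised cells and 0.113% of those in balanced cells. The first share is high by construction, because the rule picks these autosomes by their mean. Of the 11 segments on the other autosomes of raised cells, 7 were in cell 10. Raised cells were shallower, and the part of depth in these shares was not tested.

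All 5 segments at 2 or more in balanced cells belonged to 1 arm. They were the first 5 segments of chromosome 5 in cell 2, between 2.05 and 2.61, and up to 45900000 this chromosome stood at 2.34 (2.23 to 2.45, 1769 counts) against 1.12 on the rest. Chromosome 5 as a whole was at 1.37 in this cell, so the rule counts it as balanced. The other step in a balanced cell went the opposite way: the first 10 Mb of chromosome 20 in cell 17 were at 0.18 (0.12 to 0.24, 37 counts) and the rest at 0.89. The lowest whole autosome was also in a balanced cell, chromosome 4 in cell 8 at 0.62, followed by chromosome 19 in the raised cell 23 at 0.73.

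The share of bins with signal on a raised autosome is another view of the level that the rule used, and nothing is read from it beyond a description. Because the raised cells are shallow, it is given as the share of bins expected to hold a count after every cell is thinned to the same 8521 counts on the 9 autosomes raised in no cell. A raised autosome keeps more counts than its counterpart after this thinning, so more of its bins can be above 0 by construction. The share on a raised autosome exceeded the median of the balanced cells in 17 of 18 combinations, by a median of 6.81 percentage points and between -4.02 and 24.2. It exceeded every balanced cell in 9 of 18 (50.0%), against 1.33% of the 150 other combinations of the raised cells. The lowest value was that of chromosome 4 in cell 23. Without thinning the median difference was -15.1 percentage points, in cells that held fewer counts in all.

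The widest differences were in cell 3, which also had the highest level. On chromosome 6 it had signal in 67.6% of bins, against 37.5% to 50.3% in balanced cells (median 43.4%). On the derivative 9:22 the share was 65.6% against at most 57.7%, on chromosome 19 it was 75.9% against at most 62.5%, and on chromosome 18 it was 53.5% against at most 45.9%. Chromosome 21 of the same cell, whose level rested on 1 bin, had 42.7% against a balanced median of 41.1%. In cell 10, chromosome 14 had 54.1% against at most 47.6%, while chromosome 6 had 50.3%, at the top of the balanced range.

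Inside most raised autosomes the map correlated with that of the balanced cells within the range of single balanced cells, but mostly in its lower part. Over 1 Mb windows without the 903 bins, the Pearson correlation of a raised autosome with the mean of the balanced cells ran from 0.48 to 0.88 with a median of 0.78, as a description over windows of 1 chromosome each. In 13 of 18 combinations it lay inside the range of single balanced cells on the same chromosome, and in 14 of 18 it lay below their median. Over all autosomes together, all 8 raised cells lay below the balanced median too, so a low position is not particular to raised autosomes. Raised cells were also shallower, and the part of depth in these correlations of single chromosomes was not tested. For chromosome 6 in cell 3 it was 0.88, where balanced cells ran from 0.78 to 0.92. Thinning the chromosome by its level left 0.84. The lowest correlations were those of stepped chromosomes, 0.48 for chromosome 19 in cell 13 and 0.52 for chromosome 10 in cell 21, both below every balanced cell.

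The other chromosomes of the raised cells were also less even. Without the autosomes at 1.5 or more, and in balanced cells without the highest autosome, the SD of log2 levels over autosomes ran from 0.16 to 0.28 in raised cells (median 0.23) and from 0.07 to 0.23 in balanced cells (median 0.13). All 8 raised cells lay above the balanced median and 5 above every balanced cell. The rule uses the same levels, so this spread is not independent of it. Against the 5 balanced cells under 45000 counts the difference of medians was 0.07 and not 0.11.

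**Figure D4:**
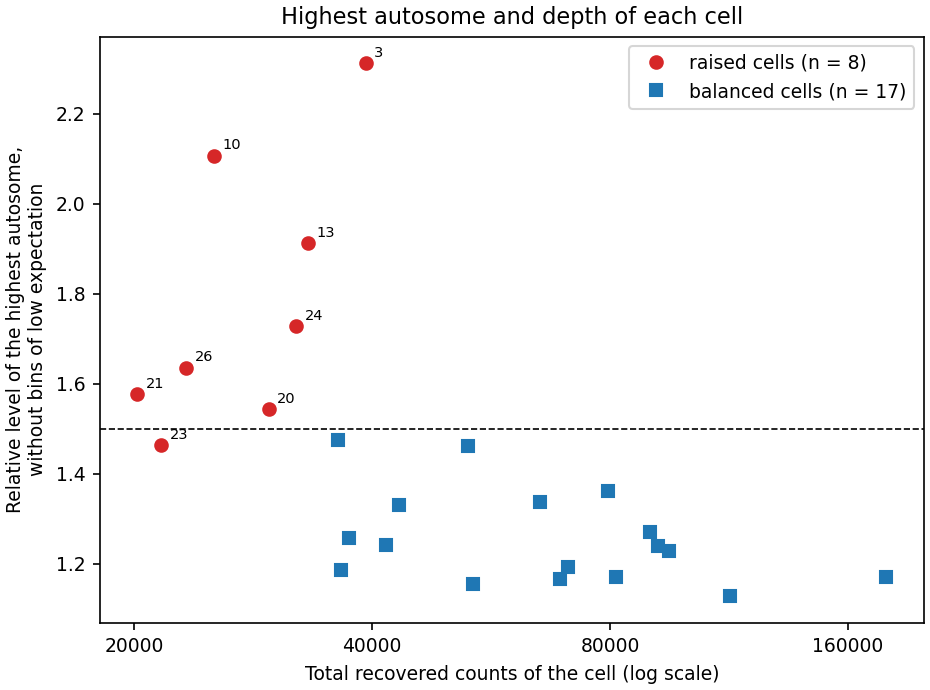
Relative level of the highest autosome of each cell without bins of low expectation (y axis; dashed line at 1.5) against its total recovered counts (log x axis), for 8 raised (circles, numbered) and 17 balanced cells (squares). Raised cells span 20182 to 39255 counts and balanced cells 36240 to 178941. Cell 23 falls to 1.46, below the balanced cell 7 at 1.47.

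The X chromosome, which the rule did not use, lay at a like level in both groups. On the same scale it ran from 0.85 to 1.18 in raised cells (median 1.00) and from 0.83 to 1.401 in balanced cells (median 1.00). The range of the raised cells lay inside that of the balanced cells, and 4 of 8 raised cells lay above the balanced median. By cell it was 0.85 in cell 3, 0.88 in cell 10, 1.18 in cell 13, 1.05 in cell 20, 1.09 in cell 21, 0.90 in cell 23, 1.08 in cell 24 and 0.96 in cell 26. Cells 3 and 10, with the highest autosomes of the group, had its lowest X levels. The highest X level belonged to the balanced cell 17.

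A further comparison was of the maps of both groups with the level of each chromosome set aside. Every cell was divided by its mean on each chromosome and averaged over 2496 windows of 1 Mb with at least 5 used bins. The mean profiles of the 8 raised and 17 balanced cells had a Pearson correlation of 0.88 across windows, and 0.93 without bins of low expectation. With every cell thinned to 20000 counts the correlations were 0.82 with all used bins and 0.91 without bins of low expectation. Against the 5 balanced cells under 45000 counts, with all used bins, the correlation was 0.77. Windows are not independent, and both profiles share 1 expectation per bin. In 91.8% of windows the raised and balanced means differed by less than 1.5-fold either way.

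Few windows differed by 2-fold, and nearly all of these were lower in the raised cells. At 2 or more there were 5 windows (0.200%) and at 0.5 or less 33 (1.32%), or 38 in all (1.52%). Without the 903 bins none of 2440 windows was at 2 or more and 22 were at 0.5 or less (0.902%). These 22 lay on 12 chromosomes and had a balanced mean between 0.27 and 0.85 of their chromosome mean, so all lay below the mean of their chromosome. In 12 of the 22 every raised cell lay below the balanced median. The 22 were picked by the low mean of these same cells, so that count is no separate evidence. The count of 38 was 58 without cell 3 and 61 without cell 20. It was 61 with every cell thinned to 20000 counts and 74 against the 5 balanced cells under 45000 counts. Raised cells together held a median of 77 counts per window, and the part of counting error in these calls was not tested.

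All 8 raised cells lay on 1 side of the balanced median in 37 of 2496 windows (1.48%), above it in 9 and below it in 28. Some windows would have all 8 on 1 side without any difference between the groups, and their expected number was not computed. The windows named below are thus a description. The window ratios of the raised cells are given relative to their chromosome mean. Chromosome 10 at 67000001 to 68000000 had the lowest ratio of raised over balanced mean, 0.28. There the raised cells ran from 0 to 0.33 with a mean of 0.12, against 0.07 to 0.92 with a mean of 0.41 in balanced cells. Another window of chromosome 10, at 125000001 to 126000000, ran from 0.08 to 0.48 in raised cells (mean 0.26) and from 0.31 to 1.11 in balanced cells (mean 0.77). This second window held 494 counts, the most of the 6 lowest.

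The other 4 of the 6 lowest were on chromosome 7 at 153000001 to 154000000 (ratio 0.30), chromosome 5 at 85000001 to 86000000 (0.34), chromosome 1 at 98000001 to 99000000 (0.35) and chromosome 2 at 76000001 to 77000000 (0.36). On chromosome 2 the raised cells ran from 0 to 0.43 and the balanced cells from 0.30 to 0.79. On chromosome 5 the raised cells ran from 0 to 0.40, and 3 of them, cells 20, 21 and 23, had no count there. With 11 to 30 counts over all raised cells, each of these 6 windows carries a wide counting error.

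Windows in which every raised cell lay above the balanced median differed less. The first was on chromosome 2 at 188000001 to 189000000, a window of low signal, with a mean of 0.89 in raised cells (0.49 to 1.41) against 0.46 in balanced cells (0.05 to 0.76), a ratio of 1.95. The next were on chromosome 5 at 37000001 to 38000000 and chromosome 7 at 107000001 to 108000000, at ratios of 1.501 and 1.4997. Chromosome 13 at 46000001 to 47000000 followed at 1.47, chromosome 6 at 108000001 to 109000000 at 1.41 and chromosome 5 at 43000001 to 44000000 at 1.404. The last 3 were windows of high signal, with balanced means between 1.68 and 1.83. On chromosome 6 the raised cells ran from 1.68 to 2.98 and the balanced cells from 1.24 to 2.54.

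**Figure D5:**
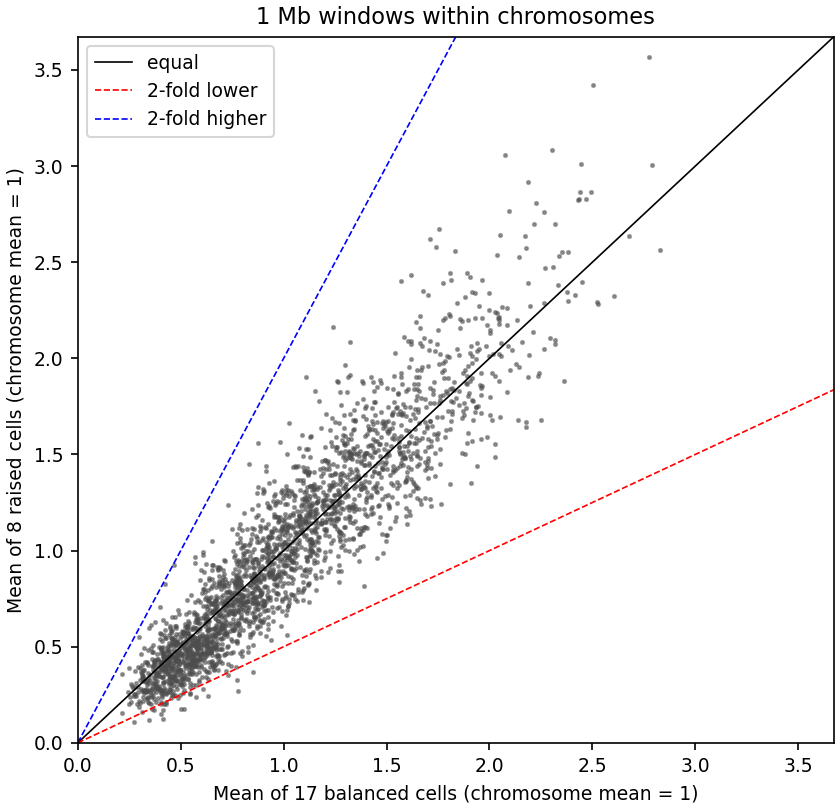
Mean of the 8 raised cells (y axis) against mean of the 17 balanced cells (x axis) for 2440 windows of 1 Mb, each cell divided by its chromosome means and bins of low expectation left out; lines mark equal values and 2-fold differences. The 22 points under the lower line all have a balanced mean of at most 0.85, and no point lies above the upper line.

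Windows of low signal were slightly lower as a class. In 5 equal classes of 488 windows ranked by the balanced mean, the lowest class averaged 0.403 ± 0.0770 (SD, n = 8 raised cells) against 0.438 ± 0.0489 (SD, n = 17 balanced cells). The second class averaged 0.632 ± 0.0704 against 0.672 ± 0.0475. The highest averaged 1.79 ± 0.162 against 1.76 ± 0.0986. The fourth class averaged 1.27 ± 0.0546 against 1.23 ± 0.0300, a difference larger than the SD of the balanced cells and smaller than that of the raised cells. The other differences were smaller than both SDs. The 2 groups overlapped in every class.

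Single raised cells differed more than the group did. The slope of a cell's windows on the mean of the balanced cells, which is 1 for a map of equal contrast, was 1.41 in cell 13 and 1.28 in cell 10, above every balanced cell (0.79 to 1.25). The other 6 raised cells lay between 0.87 and 1.07. Cells 13 and 10 thus had a steeper map between windows of high and low signal. In the highest class they averaged 2.08 and 1.98 times the chromosome mean, against 1.596 to 1.98 in balanced cells.

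Raised cells resembled the balanced map less, by a margin that depended on how depth was matched. The correlation of a single cell with the balanced mean, over 1 Mb windows without bins of low expectation, ran from 0.54 to 0.83 in raised cells (median 0.74) and from 0.73 to 0.91 in balanced cells (median 0.84). After thinning every cell to 20000 counts the medians were 0.70 and 0.72, with ranges of 0.53 to 0.78 and 0.63 to 0.78. With all used bins the difference of medians was -0.141, -0.051 after thinning, and -0.130 against the 5 balanced cells under 45000 counts. The last value takes the mean of those 5 cells as the reference map. Without bins of low expectation and against the mean of all balanced cells, those 5 ran from 0.75 to 0.82 before thinning. Cell 23 had the lowest value both before and after thinning, 0.54 and 0.53. Cell 13, with chromosomes 19 and 21 raised, had the highest after thinning, 0.78.

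Chromosome ends and the contrast between chromosome classes gave overlapping values in both groups. The log2 ratio of the terminal 5 Mb over interiors ran from -0.15 to 0.20 in raised cells (median 0.11) and from 0.02 to 0.26 in balanced cells (median 0.14). The log2 ratio of gene-dense chromosomes (16, 17, 19, 20 and 22:9) over gene-poor ones (4, 5, 13 and 18) had medians of 0.62 and 0.78. It uses chromosome levels, and its range of 0.34 to 1.26 in raised cells was wider than the 0.42 to 1.17 of balanced cells. The highest values belonged to cell 13, with chromosome 19 raised, at 1.26, and cell 24, with chromosome 20 raised, at 1.25. The lowest among the raised cells were cell 23 at 0.34 and cell 26 at 0.45, in which chromosome 4 was called. All used bins enter this ratio. The value of cell 23, the low end of the raised range, thus includes the chromosome 4 bin with a ratio of 359 from 1 count.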

How the data were processed

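The authors deposited 1 table of linear ratios for bins of 100 kb; its name and values show them to be observed over expected signal. Per the submitters' processing notes, cutadapt and Bowtie2 2.1.0 were used with hg19; how bins were counted and masked, and what was expected, is not stated in the labels. Of 30376 bins, 3792 had no value, among them all of chromosome 8, and 253 were 0 in all cells. Each of the 26 columns carries the number of 1 sample. Within a bin the deposited ratios were whole multiples of 1 step per cell, so the smallest whole counts and relative expectations were recovered (tolerance 0.001, largest distance 2.42e-13). Segments needed 20 used bins and windows 5. The regions named are every raised autosome and the 6 highest and 6 lowest windows with at least 100 counts and all raised cells on 1 side of the balanced median; steps, arms, segments at 2 or more, slopes, signal classes and single bins were chosen after their values were seen. Members and lists were chosen with earlier results of these data known. Regions carry no gene names because the gene table used here is of another build. Procedures were tested on simulated counts. Software comprised scipy 1.17.1, numpy 2.4.6, matplotlib 3.10.9 and pandas 2.3.3, under Python 3.11.15.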

Additional observations from a re-analysis of the deposited data

Results flagged for a closer look

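Cell 26 had a log2 ratio of chromosome ends over interiors of -0.147, apart from the other 7 raised cells, which lay between 0.05 and 0.20. It is the only cell of both groups below 0. Of 8 measures looked at in this way over the raised cells, 1 had a cell so far from the rest; chance flags about 1 in 20 for each measure, so with 8 measures a single flag is not unusual.

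Cell 22, which the rule leaves out, held signal of its own kind. Its highest autosome without bins of low expectation was chromosome 18 at 1.49, just under the threshold, from a cell of 21105 counts. Its departures were mainly downward, with chromosome 19 at 0.41, chromosome 15 at 0.53 and chromosome 17 at 0.53.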

How the results depend on the processing

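Of 129 recomputed values, 113 moved by less than the SD between raised cells or autosomes, or stayed within 1.5 times a count, 9 moved further and 7 others changed sign. Among the 9 was the gain in bins with signal without thinning, which changed sign as well. The number of raised cells was 7 without bins of low expectation, 10 with thinned counts, 11 at 1.4 or more and 6 at 1.6 or more. Windows past 2-fold numbered 22 without bins of low expectation, 61 with every cell thinned to 20000 counts, 8 with 2 Mb windows, 90 with medians over cells, 74 against the 5 balanced cells under 45000 counts, and 204 at 1.5-fold. They ran from 36 to 61 when each raised cell was left out in turn. The difference of X levels, -0.00087, was 0.0063 without bins of low expectation and ran from -0.056 to 0.043 when each raised cell was left out. The difference in ends over interiors, -0.03, was 8.8e-05 over autosomes raised in no cell and 0.065 against the 5 shallow balanced cells. The gain in bins with signal, 6.81 percentage points, was -15.1 without thinning. The cause was not tested, apart from thinning, which by construction removes the difference in depth. Summed counts, the shallow balanced cells only, the filter with thinning together, and the restriction to 14 combinations were chosen after seeing the data. No paired analysis was possible because the groups share no replicate numbers. At 0.766 to 6.80 counts per used bin, single bins of single cells cannot be compared.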
